A study of Homo sapiens with 8 samples.

Results

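The genes described here encode the subunits, assembly factors, activators and inhibitor of the proteasome. They were chosen by symbol, as the rows whose name starts with PSMA, PSMB, PSMC, PSMD, PSME, PSMF or PSMG, and there were 42 of them among the 4616 genes of the authors' deposited table. Of the 42 genes, 14 encode the core particle (PSMA and PSMB), 20 carry cap symbols (PSMC and PSMD) and 8 encode assembly factors, activators or the inhibitor (PSME, PSMF and PSMG). A further 6 proteasome genes had no row: the testis subunit PSMA8, the immunoproteasome subunits PSMB8, PSMB9 and PSMB10, the thymus subunit PSMB11 and the assembly factor PSMG4. PSMC3IP, a recombination protein that shares only the letters of the symbol, had 0 rows.

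The cells were WM902B, an established human line grown from a primary melanoma that carries an activated BRAF, from which both ribosome footprints and RNA were sequenced. Cells at passage 18 carried either a hairpin against the long non-coding RNA TINCR (shTINCR) or a scrambled control hairpin (shSCR), and all were treated with cycloheximide at 100 µg/ml for 5 min, which arrests ribosomes on mRNA. The labels give the knockdown as shTINCR alone, and do not say how many hairpins this covers or whether the cells were a pool or a clone. The 8 libraries were 4 of footprints and 4 of RNA, in 2 biological replicates per hairpin and kind of library. The RNA libraries are labelled poly(A) RNA, though their titles say total RNA. Per gene, the authors' deposited table gives TE (translational efficiency, the ratio of footprints to mRNA) of each condition on a log2 scale, its log2 change between the conditions, and p-values with and without adjustment. It holds no value of a single library, so depth, replicate spread and separate mRNA or footprint changes are unknown here, and no SD can be given. TINCR had 0 rows, so its silencing was not checked here. Of 8 melanocyte lineage markers 7 had a row, with TYRP1 missing, against 0 of 7 keratinocyte, 1 of 6 fibroblast and 1 of 6 immune markers. Since whole cultures were lysed, a change in some of the cells cannot be told apart from a smaller change in all of them.

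The proteasome degrades proteins tagged with ubiquitin. Its core particle is a barrel of alpha rings, which gate the entrance, around beta rings, which hold the cutting sites. A cap on the barrel's end binds ubiquitin (PSMD4 and ADRM1), removes it (PSMD14) and unfolds the substrate with a ring of ATPases (the PSMC subunits), and other proteins can replace the cap. Subunits are built in fixed proportion with the help of dedicated chaperones. Cells that make much protein, tumour cells among them, depend heavily on this machine, and its core is the target of bortezomib.

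TE of 6 of the 42 proteasome genes fell in shTINCR cells at the authors' adjusted p below 0.05, and 0 rose. All 6 encode cap subunits: the ATPases PSMC1, PSMC2, PSMC5 and PSMC6, the scaffold PSMD1 and the deubiquitinase PSMD14. Over all genes, 16.4% passed the threshold, 8.23% upwards and 8.17% downwards. The proteasome's share was 14.3%, all of it downwards, so the share that passed was close to that of all genes and its division by direction was not even. The median log2 change of the 42 genes was -0.07 (0.951-fold), beside 0.016 over all genes. At an unadjusted p below 0.05, 8 of the 42 genes were lower and 2 were higher, beside 13.7% and 15.8% of all genes. The changes were small, since 0 of the 42 reached a log2 change of 0.5 in either direction, a size that 4.46% of all genes reached. At a stricter adjusted p below 0.01, PSMC1 alone of the 42 genes passed, and the share of all genes there was not counted.

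**Figure D1:**
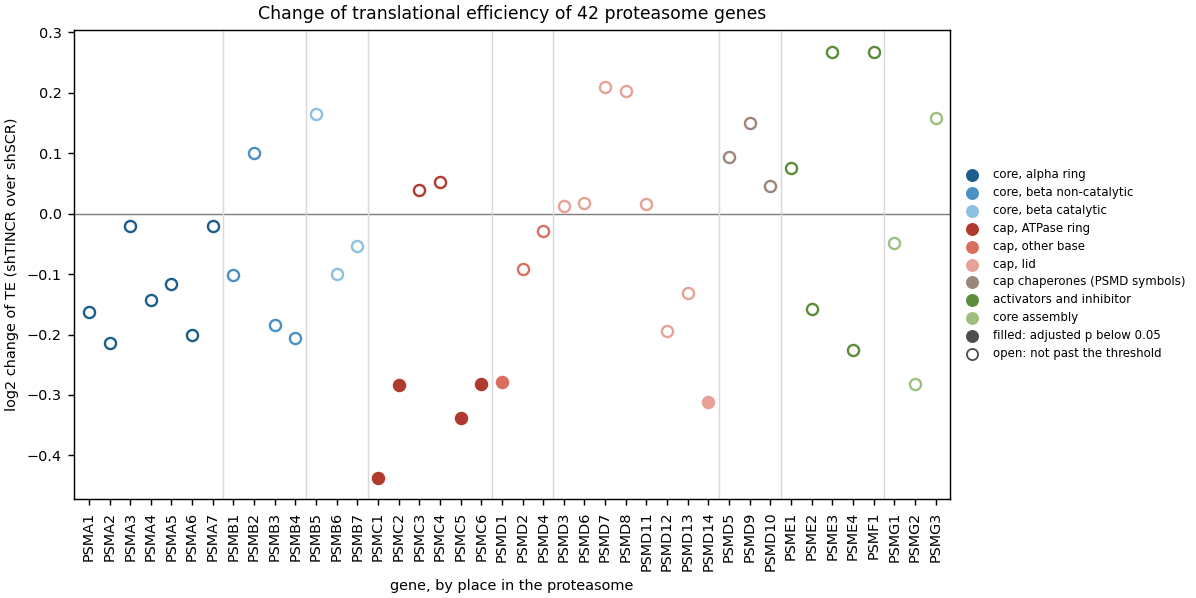
The vertical axis is the log2 change of TE (shTINCR over shSCR) of each of the 42 genes, ordered along the horizontal axis by place in the proteasome; filled points passed an adjusted p below 0.05 per the authors' deposited table. The 6 filled points lie between -0.44 and -0.28 and belong to the ATPase ring, the rest of the base and the lid, and 0 belong to the core.

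Of the 6 ATPases, 4 fell (66.7%, beside 8.17% of all genes) and the other 2 lay near 0. PSMC1, whose tail docks into the alpha ring and helps to open its gate, had a log2 TE of 0.13 in shTINCR and 0.57 in shSCR cells, a log2 change of -0.44 (0.739-fold, adjusted p = 0.000176) per the authors' deposited table. This was the lowest change of the 42 genes, and it moved PSMC1 to percentile 55.5 of all genes by TE in shTINCR cells, against percentile 76.5 in shSCR cells. PSMC5 had a log2 TE of 0.73 in shTINCR and 1.07 in shSCR cells, a change of -0.34 (0.791-fold, adjusted p = 0.0356) per the authors' deposited table. For PSMC2 the authors' deposited table gave 0.18 in shTINCR and 0.46 in shSCR cells, a change of -0.28 (0.822-fold, adjusted p = 0.0237). PSMC6 had 0.30 in shTINCR and 0.58 in shSCR cells, a change of -0.28 (0.822-fold, adjusted p = 0.0435) per the authors' deposited table. TE of these 4 ATPases in shTINCR cells was thus between 0.739 and 0.822 of that in shSCR cells. The remaining ATPases, PSMC3 and PSMC4, also open the gate with their tails. In the authors' deposited table PSMC3 had 0.55 in shTINCR and 0.51 in shSCR cells (change 0.04, adjusted p = 0.803), and PSMC4 had 1.09 in shTINCR and 1.04 in shSCR cells (change 0.05, adjusted p = 0.759). The median change of the 6 ATPases was -0.28, and that of the 2 with no named pseudogene, PSMC4 and PSMC5, was -0.14. Whether any ATPase differed from another was not tested.

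The ATPases are known to join in 3 pairs, each with a chaperone that carries a PSMD symbol but leaves before the cap is finished. In the pair of PSMC2 and PSMC1, both members fell, and their chaperone PSMD5 had a log2 change of 0.09 (adjusted p = 0.71) per the authors' deposited table. In the pair of PSMC4 and PSMC5, PSMC5 fell, and the chaperone PSMD10 (gankyrin) had 0.05 (adjusted p = 0.84) per the authors' deposited table. In the pair of PSMC6 and PSMC3, PSMC6 fell, and the chaperone PSMD9 had 0.15 (adjusted p = 0.552) per the authors' deposited table. Every pair held at least 1 ATPase that fell. Since 4 of the 6 ATPases fell, at most 1 pair could have held none, so this says little about the pairs. Of the 3 chaperones 0 passed the threshold.

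Beside the ATPases, the base of the cap holds the scaffolds PSMD1 and PSMD2 and the ubiquitin receptor PSMD4. PSMD1 had a log2 TE of -0.04 in shTINCR and 0.24 in shSCR cells, a change of -0.28 (0.825-fold, adjusted p = 0.0237) per the authors' deposited table. The related scaffold PSMD2 had -0.20 in shTINCR and -0.11 in shSCR cells, and its change of -0.09 did not pass (adjusted p = 0.542) per the authors' deposited table. PSMD4 stood at 0.51 in shTINCR and 0.54 in shSCR cells (change -0.03, adjusted p = 0.877) per the authors' deposited table. Of the 9 base subunits with PSMC or PSMD symbols, 5 therefore fell (55.6%, beside 8.17% of all genes).

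Of the 8 lid subunits with PSMD symbols, 1 fell (12.5%, beside 8.17% of all genes). PSMD14, the enzyme that cuts ubiquitin chains off the substrate, had a log2 TE of -0.45 in shTINCR and -0.14 in shSCR cells, a change of -0.31 (0.805-fold, adjusted p = 0.0355) per the authors' deposited table. It had the lowest TE of the 42 genes in shTINCR cells, at percentile 30.7 of all genes. Its partner PSMD7, with which it forms a dimer, had 0.24 in shTINCR and 0.03 in shSCR cells, a change in the other direction that did not pass (0.21, adjusted p = 0.173) per the authors' deposited table. The other 6 of these 8 lid subunits are scaffold proteins of 1 fold, the PCI domain. Among them PSMD8 had the highest change (0.20, adjusted p = 0.132) and PSMD12 the lowest (-0.19, adjusted p = 0.183), with PSMD13 at -0.13 per the authors' deposited table. PSMD3, PSMD6 and PSMD11 lay between 0.013 and 0.018 per the authors' deposited table. The median of these 8 was 0.014.

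In the core, 0 of 14 genes passed the threshold in either direction, beside 16.4% of all genes. At an unadjusted p below 0.05, 2 of the 14 were lower, beside 13.7% of all genes. Yet 12 of the 14 changes were below 0, beside 47% of all genes, and the core's median was -0.11 (0.927-fold). In the alpha ring all 7 changes were below 0, from -0.21 for PSMA2 (adjusted p = 0.13) and -0.20 for PSMA6 (adjusted p = 0.184) to -0.02 for PSMA3 and PSMA7 per the authors' deposited table. PSMA1, PSMA4 and PSMA5 lay between -0.16 and -0.12 per the authors' deposited table. The SD across these 7 gate subunits was 0.079.

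The beta ring was more mixed. Of its non-catalytic subunits, PSMB4 had a log2 TE of 0.75 in shTINCR and 0.95 in shSCR cells, a change of -0.21 per the authors' deposited table. Its adjusted p of 0.0902 made it the core gene nearest to the threshold, and it passed in the second of the authors' 2 versions of the estimate (adjusted p = 0.0314), where 9.23% of all genes fell. PSMB3 had -0.18 (adjusted p = 0.194), PSMB1 -0.10 and PSMB2 0.10 per the authors' deposited table. The catalytic subunits cut after different residues. PSMB5, which carries the chymotrypsin-like site that bortezomib binds, had 0.74 in shTINCR and 0.57 in shSCR cells (change 0.16, adjusted p = 0.236) per the authors' deposited table. PSMB6, the caspase-like subunit, had a change of -0.10 (adjusted p = 0.555) and PSMB7, the trypsin-like subunit, one of -0.05 (adjusted p = 0.756) per the authors' deposited table. The cutting subunits thus lay on both sides of 0, and 0 of the 3 passed.

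Set side by side, the core had 0 of 14 genes past the threshold with a median of -0.11. The genes with cap symbols had 6 of 20 (30%), all downwards, with a median of -0.0078. Over all genes 8.17% fell. Without the chaperones PSMD5, PSMD9 and PSMD10, 6 of 17 cap subunits with PSMC or PSMD symbols fell (35.3%). The median of these 17 was -0.092, close to that of the core. The assembly, activator and inhibitor genes had 0 of 8 past the threshold and a median of 0.013. Of the 17 cap subunits, 10 had a change below 0 and 7 a change above 0. The SD across genes was 0.193 for these cap subunits, 0.115 for the core and 0.218 for the assembly, activator and inhibitor genes. The core's changes were nearly all slightly negative. The difference between the classes was not tested, because genes are not replicates of a condition.

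Among the alternative caps and the inhibitor, 0 of 5 genes passed, beside 16.4% of all genes. PSME3, the nuclear activator, had a log2 TE of -0.35 in shTINCR and -0.62 in shSCR cells, a change of 0.27 (adjusted p = 0.137) per the authors' deposited table. PSMF1, the inhibitor, had 1.29 in shTINCR and 1.02 in shSCR cells, a change of 0.27 (adjusted p = 0.352) per the authors' deposited table. These were the highest changes of the 42 genes, and neither passed. PSME1 and PSME2, which form the interferon-inducible activator together, had 0.08 (adjusted p = 0.748) and -0.16 (adjusted p = 0.38), and the large nuclear activator PSME4 had -0.23 (adjusted p = 0.236) per the authors' deposited table. The assembly factors PSMG1 and PSMG2 act as a dimer on the alpha ring. PSMG2 had a log2 TE of -0.28 in shTINCR and 0.000845 in shSCR cells, a change of -0.28 that matches those of PSMC2 and PSMC6 to 2 decimals but did not pass (adjusted p = 0.188), while PSMG1 had -0.05 (adjusted p = 0.843) per the authors' deposited table. PSMG3, another assembly factor, had 0.16 (adjusted p = 0.587) per the authors' deposited table. The precision of these 8 genes was lower than that of the core. The standard error that a change and its p-value imply, if the p-value is that of a normal statistic, had a median of 0.132 for them, 0.0988 for the core, 0.101 for the cap and 0.129 for all genes.

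TE itself is a ratio of footprints to mRNA. Over which part of a gene each was counted is not given, so the length of a gene need not cancel. Levels of different genes are therefore set beside each other only as a description of the deposited values. The proteasome genes lay above the typical gene in both conditions: 33 of 42 exceeded the median of all genes in shTINCR cells and 36 of 42 in shSCR cells. Their median log2 TE was 0.45 in shTINCR and 0.55 in shSCR cells, beside 0.0019 in shTINCR and 0.0078 in shSCR cells over all genes. Of the 3 classes the core stood highest, with medians of 0.77 in shTINCR and 0.92 in shSCR cells, followed by the cap with 0.35 in shTINCR and 0.49 in shSCR cells. The assembly and activator genes had medians of 0.11 in shTINCR and 0.25 in shSCR cells, and within this class the 5 activator and inhibitor genes alone had 1.01 in shTINCR and 1.02 in shSCR cells, above the core. The highest levels in shTINCR cells were those of PSME1 (1.43), PSMB7 (1.41) and PSMF1 (1.29), and the lowest after PSMD14 were those of PSME3 (-0.35) and PSMG3 (-0.31) per the authors' deposited table. In shSCR cells PSMB7 (1.47), PSME1 (1.36) and PSMA3 (1.26) were highest, and PSME3 (-0.62), PSMG3 (-0.46) and PSMD9 (-0.37) were lowest in the authors' deposited table. Subunits of the core, present in equal number in the finished barrel, had unlike deposited levels. Their log2 TE ranged from -0.05 to 1.41 in shTINCR cells and from 0.10 to 1.47 in shSCR cells. Those of the cap without its chaperones ranged from -0.45 to 1.09 in shTINCR cells and from -0.14 to 1.07 in shSCR cells. Which neighbours in this order differ cannot be told, since no error of a level is given. Pearson's r between the 42 levels in shTINCR and in shSCR cells was 0.939, a description over genes that share libraries.

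**Figure D2:**
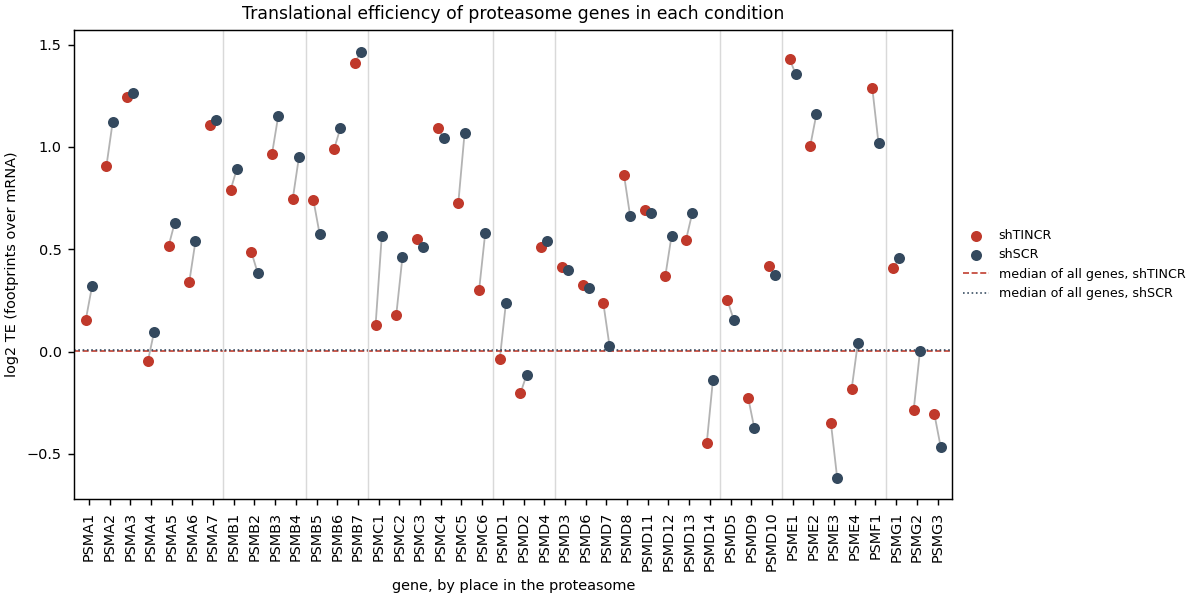
Each gene has its log2 TE in shTINCR cells (red, left) joined to that in shSCR cells (dark, right), ordered as in the plot of changes, with the median of all genes as a line for each condition near 0. Most points lie above the lines, and the medians of the core genes are 0.77 in shTINCR and 0.92 in shSCR cells.

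One trait known to tie an mRNA's TE to growth signalling is a C followed by a run of pyrimidines at its very start, the mark of ribosomal protein mRNAs. RefSeq (GRCh38.p14) gave start sequences for 36 of the 42 genes, with 44 annotated starts, and those of PSMA7, PSMB1, PSMB6, PSMB7, PSMD4 and PSMG3 were not matched. Each start was searched on the gene's own strand for a C at the first base followed by at least 4 bases that are C or T. This was found for 1 of 36 proteasome genes (2.78%), beside 8.81% of 3735 matched genes of the deposited table, 5.14% of all 27305 genes with a start sequence and 73.3% of 60 ribosomal protein genes. A gene counted if any of its annotated starts matched. The 3735 genes had 5409 starts, more per gene than the proteasome genes, and so more places to match. The match was at 1 of the starts of PSMB5, and 0 of the 6 genes that fell had it. Where the run could begin up to 5 bases from the start, an alternative chosen after seeing the data, 10 of 36 proteasome genes had it (27.8%, beside 29.8% of genes of the deposited table), with PSMC5 and PSMC6 among the genes that fell. Annotated starts need not be those used in WM902B cells, and a start with no match says only that these letters are not there. The sequences of the 6 ATPases, PSMD1, PSMD14 and PSMB5 are shown to let their starts be read beside those of EEF2 and RPL13A. In the authors' deposited table EEF2, the elongation factor that moves the ribosome, had a change of -1.14, the lowest of all genes. The ribosomal protein RPL13A had -0.98 there. Such sizes are not typical of ribosomal protein genes, since the median change of all 60, with and without the run, was -0.24. The median of the genes with the run alone was not computed. Each sequence runs 5′ to 3′ from 10 bases before the annotated start to 15 bases from it onwards. Capitals mark the first 5 bases from the start.
PSMC1 (chr14:90256543-90256567, + strand): gggccgcagtGGTGGaggaacttcc
PSMC2 (chr7:103347633-103347657, + strand): agggaaagggAAGACaccaccggaa
PSMC5, upstream start (chr17:63827421-63827445, + strand): ccaatcctccGCTTCcgcgcttgcg
PSMC5, downstream start (chr17:63827711-63827735, + strand): aagacgcggtAGAAGcggagtgagt
PSMC6 (chr14:52707190-52707214, + strand): ggcatcccctATGAGagacggcttc
PSMC3 (chr11:47426425-47426449, - strand): tcggagaggcAGATTcgctgctccg
PSMC4 (chr19:39971155-39971179, + strand): aagcggtgacAGATCatcccaggcc
PSMD1 (chr2:231056857-231056881, + strand): ggcgggcgggGTCCTggcgagaagc
PSMD14 (chr2:161308415-161308439, + strand): gtgaacccggAAGTGcttcgcggcg
PSMB5, downstream start (chr14:23034886-23034910, - strand): agaattagttCTTTCtgcccacact
PSMB5, upstream start (chr14:23035206-23035230, - strand): cttctcaaagATGGCcgacctcact
EEF2 (chr19:3985449-3985473, - strand): cgtcagcgttCTCTTccgccgtcgt
RPL13A (chr19:49487598-49487622, + strand): aaacctcctcCTTTTccaagcggct
EEF2, RPL13A and the downstream start of PSMB5 open with a C and pyrimidines in all 5 capitals. Every start shown of the 4 ATPases that fell, of PSMD1 and of PSMD14 opens with a purine (A or G), and so do those of PSMC3 and PSMC4, which did not pass.

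Near-identical copies elsewhere in the genome can take or lend reads. Named pseudogenes in RefSeq were found for 21 of the 42 genes, and how reads with several places of origin were treated is not given here. PSMC1, with the lowest change, also had the most of them, 13, and PSMC2, PSMC6 and PSMD14 had 2, 3 and 1, whereas PSMC5 and PSMD1 had 0. The 21 genes with a named pseudogene had a median change of -0.12, and 4 of them fell (19%). Among the 21 without, the median was 0.013 and 2 fell (9.52%), beside 8.17% of all genes. The values of genes with pseudogenes are therefore uncertain, and the part of shared reads in the changes was not tested. Genes of small nucleolar RNAs lay inside 0 of the 42 genes, and 1, PSME2, holds a microRNA gene.

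Proteins that work with the proteasome but carry other symbols were then counted, from a list of partners with 21 measured genes. Of these 4 fell and 2 rose, 28.6% in all beside 16.4% of all genes, with a median of -0.11. The list was chosen with earlier results of these data known, and TXNL1, which fell, was picked with its values in view. The share is therefore not independent of the values. USP14, the deubiquitinase that binds PSMD2, had a log2 TE of 0.97 in shTINCR and 1.42 in shSCR cells and fell by 0.45 on the log2 scale (0.734-fold, adjusted p = 0.00263) per the authors' deposited table. KIAA0368, the adaptor also called ECPAS that holds cap and core together, fell by 0.42 (adjusted p = 0.00554) and TXNL1, a thioredoxin-like protein bound to the cap, by 0.38 (adjusted p = 0.0472) per the authors' deposited table. MIDN, which brings nuclear proteins to the proteasome without ubiquitin, rose by 0.76 (1.69-fold, adjusted p = 0.000107), with a log2 TE of 0.98 in shTINCR and 0.22 in shSCR cells in the authors' deposited table. Of the cofactor pair of the unfoldase VCP, UFD1 fell by 0.33 (adjusted p = 0.0255) and NPLOC4 rose by 0.30 (adjusted p = 0.0461) per the authors' deposited table.

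Other partners did not pass. ADRM1, the ubiquitin receptor of the base, had a change of 0.24 (adjusted p = 0.0827), and UCHL5, the deubiquitinase it recruits, one of -0.25 (adjusted p = 0.148) per the authors' deposited table. POMP, which matures the core, had -0.17 (adjusted p = 0.241), and NFE2L1, the transcription factor that raises proteasome genes when the proteasome is inhibited, had -0.09 (adjusted p = 0.622) per the authors' deposited table. NFE2L2, its relative, had -0.28 (adjusted p = 0.12) per the authors' deposited table. Of 3 genes that supply ubiquitin, 1 fell (33.3%, beside 8.17% of all genes) and 0 rose, with a median of -0.24. UBA6, an activating enzyme, fell by 0.43 (adjusted p = 0.0201) per the authors' deposited table. The polyubiquitin gene UBB had -0.24 (adjusted p = 0.0653) per the authors' deposited table.

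The lid shares its build with 2 other complexes, the COP9 signalosome and the initiation factor eIF3, and the CCT chaperonin is another ring of unlike subunits. Of the signalosome 0 of 8 measured genes passed, beside 16.4% of all genes, and the median was -0.16. At an unadjusted p below 0.05, 2 of the 8 were lower and 0 higher, beside 13.7% and 15.8% of all genes. COPS2 had the smallest p, with a change of -0.23 (adjusted p = 0.149), and COPS6 followed with -0.21 (adjusted p = 0.156) per the authors' deposited table. Of eIF3, 6 of 12 measured genes fell and 0 rose, with a median of -0.33, and of CCT 6 of 8 fell and 0 rose, with a median of -0.28. These shares, 50% and 75%, stand beside 8.17% of all genes that fell. Both lists were chosen with earlier results of these data known, so the shares are not independent of those results. EIF3L and EIF3E fell by 0.74 and 0.83, and CCT8 and TCP1 by 0.51 and 0.45, in the authors' deposited table. No test was made between these lists.

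**Figure D3:**
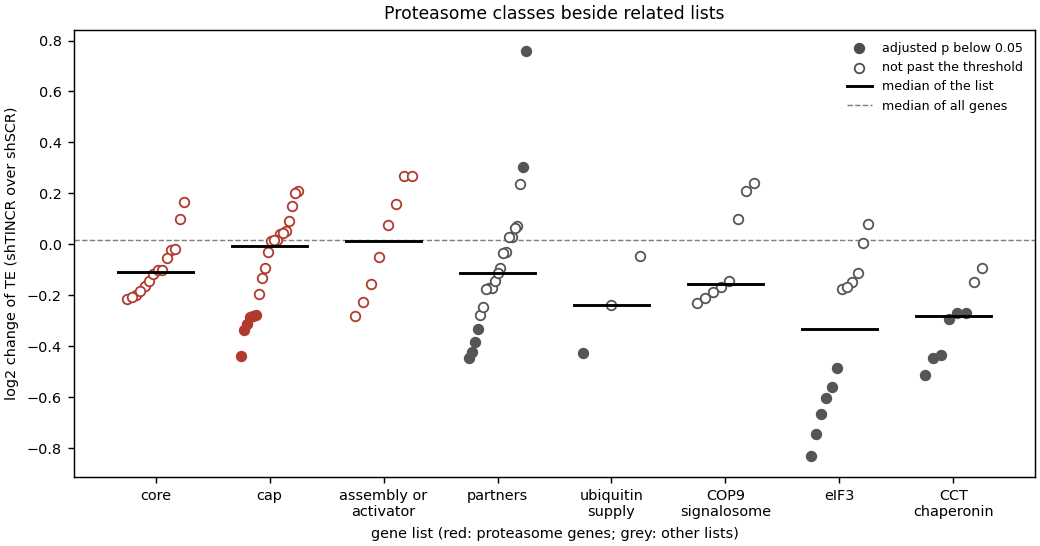
Each point is the log2 change of TE (shTINCR over shSCR) of a gene, in red for the proteasome classes and grey for the partner, ubiquitin, signalosome, eIF3 and CCT lists; filled points passed an adjusted p below 0.05, black bars are medians and the dashed line is the median of all genes. The core bar lies at -0.11 and the cap bar, drawn over 20 genes with the PSMD chaperones among them, at -0.0078 with 6 filled points below it (the bar would be at -0.092 without the chaperones). The bars of eIF3 and CCT lie at -0.33 and -0.28.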

How the data were processed

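WM902B cells with shTINCR or shSCR gave 8 libraries in 4 groups of 2 biological replicates, per the labels' protocols. The submitters' processing notes name DESeq 1.10.1, HTSeq 0.5.3p9, SAMtools 0.1.18, Bowtie2 2.1.0, TopHat2 2.0.8 and CASAVA 1.9 beside build hg19, with no roles. Neither the tool behind the TE columns nor any filter on low values is named there. The log2 values (TE per condition and change of TE in 2 versions) and the p-values are as deposited by the authors, per the file headers. In all 4616 rows the final p-value equalled the higher of the versions' p-values, and a Benjamini-Hochberg adjustment of it over all rows gave the deposited adjusted p.

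No test was refitted, since 0 columns hold library values. Calls use the deposited adjusted p below 0.05, folds are 2 to the power of the log2 change, and lists are described by counts and medians. Members and lists were chosen with earlier results of these data known. Every member could be named. From each other list, the genes named were those past the threshold (at most 6, by smallest p) and up to 2 with the smallest p that did not pass, with POMP, ADRM1, NFE2L1, UCHL5 and USP14 always. Examples from eIF3 and CCT were kept to the smallest p-values, and TXNL1, EEF2 and RPL13A were picked with their values in view. A few genes of the partner and ubiquitin lists are not reported here and were left out of those lists' counts, medians and plotted points. Gene names, pseudogenes and start sequences came from RefSeq tables of GRCh38.p14, in which all 42 symbols were current. Work was done in Python 3.11.15 (scipy 1.17.1, numpy 2.4.6, pandas 2.3.3, matplotlib 3.10.9), and the adjustment was tested on simulated data. Alternatives were the versions of the estimate, thresholds of 0.01 and 0.1, centring, a filter on precision, a size floor of 0.25 and members with no named pseudogene.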

Additional observations from a re-analysis of the deposited data

How the results depend on the processing

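The calls depended most on the threshold. At an adjusted p below 0.01, the count of genes that fell was 1 in all, in the cap and among the ATPases (PSMC1), against 6, 6 and 4 at 0.05. PSMC2 (-0.28), PSMC5 (-0.34), PSMC6 (-0.28), PSMD1 (-0.28) and PSMD14 (-0.31) no longer passed. At 0.1, and also in the authors' version 2, the core had 1 gene that fell, PSMB4, and the whole set 7. In version 2, 9.23% of all genes fell. The share of all genes was not counted at 0.01 or 0.1, so the counts there cannot be weighed against it. With only the 21 genes that have no named pseudogene, 2 fell (9.52%, beside 8.17% of all genes), both in the cap, 1 of them an ATPase. The medians were then 0.013 over the whole set and 0.016 in the cap, the other side of 0 from the values with all members, and -0.14 over 2 ATPases. Centring on the median of all genes (a shift of 0.016) put the median of the assembly and activator genes at -0.0027, PSMD11 at -0.00055 and PSMD3 at -0.0028, turning their sign. Without the 25% of genes with the largest implied standard error, 3462 genes and 39 members were left, and the median of the assembly and activator genes was -0.10, with 6 genes in place of 8. Single genes were followed over 7 alternatives, which leave out the one on pseudogenes. Of the 291 values, 282 kept their direction and side of the threshold, but much of this was fixed in advance. Centring kept the deposited adjusted p, so it could change only a direction. The thresholds and the size floor kept the deposited changes, so they could change only a side. In version 1 and with a size floor of 0.25 all 6 calls stood. The final p-values of these 6 genes are those of version 1, and their changes all lay beyond the floor. A pyrimidine run that may begin up to 5 bases from a start was an alternative chosen after seeing the data. It was found for 27.8% of proteasome genes, 29.8% of genes of the deposited table and 85% of ribosomal protein genes. Only 7 eIF3 and 7 CCT genes had a start sequence. In each of these sets 71.4% had such a run (57.1% of eIF3 and 14.3% of CCT at the start itself). Of the proteasome genes that fell, PSMC5 and PSMC6 gained a match. No paired analysis was possible because the table holds no value of a single library, and for the same reason no replicate could be left out. What depth limits is unknown, since the table gives none.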
